A study of Rattus norvegicus with 6 samples.

Results

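The genes described here encode the clathrin coat, its adaptor complexes, the proteins that pinch off and shape coated vesicles, and the sorting nexins. The rule goes by gene names and uses no measured value, although the choice of these genes was made with earlier results of these data known. The list takes the clathrin chains, a named set of coat, adaptor and scission genes, every gene named as a subunit of the adaptor complexes AP-1, AP-2 or AP-3, and every gene named Snx with a number. Of 23139 genes in the deposited tables, 72 met this rule, of which 29 were sorting nexins and 43 were not.

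Clathrin is made of heavy and light chains that assemble into a lattice on the cytosolic side of a membrane. Adaptor complexes attach this lattice to membrane lipids and to cargo receptors, with AP-2 acting at the plasma membrane, AP-1 at the trans-Golgi network and endosomes, and AP-3 on the way from endosomes to lysosomes. Dynamin then severs the neck of the coated bud. Sorting nexins carry a PX domain that binds phosphoinositides, and direct cargo out of endosomes. Those that also carry a BAR domain (SNX-BAR) bend membranes into tubules. Microglia are known for the uptake of debris and of surface receptors, which makes use of these routes.

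Primary microglia of Wistar rats, from cortices taken at postnatal day 1, were shaken off mixed cultures and purified by magnetic sorting against CD11b/c. The LPS group (LPS + DMSO) received 100 ng/mL lipopolysaccharide, a bacterial membrane component that activates microglia, with DMSO as the solvent control. The LPS/siponimod group received the same LPS together with 50 µM siponimod, a sphingosine-1-phosphate receptor modulator. Treatment began 1 day after isolation, and the methods give 1 and 3 days of culture for the experiments, without saying which applies to the sequenced RNA. Each group held 3 replicates of mRNA libraries, and cells without LPS were not analysed here. These are cultured newborn cells that all had received LPS, and in bulk RNA fewer cells of a type and less RNA per cell cannot be told apart.

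Total counts were 39484979, 38301365 and 38080379 in LPS replicates 1, 2 and 3 and 46643859, 43336006 and 38857441 in LPS/siponimod replicates 1, 2 and 3. Levels are given as CPM, which are counts divided by the library size after scaling with the TMM factors of edgeR. CPM is not divided by gene length, so that levels were compared between groups and not between genes. The cell type was checked by its markers. Microglial Itgam (CD11b), at 946, 980.4 and 1048 CPM with LPS, compared to 512, 566 and 546 CPM with LPS/siponimod, and Cd68, at 1421, 1056 and 748 CPM with LPS, compared to 1346, 1052 and 831 CPM with LPS/siponimod, were present in all 6 libraries. The summed level of 12 microglial markers was 9701, 7886 and 5174 CPM with LPS, compared to 4144, 5121 and 3028 CPM with LPS/siponimod, Csf1r holding the most counts, and 3 of the 12 fell (Itgam, Aif1 and Cx3cr1).

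Libraries numbered 3 stood apart in both groups. Transcripts of the oligodendrocyte lineage (Olig1, Olig2, Pdgfra and Sox10) summed to 7, 14 and 1135 counts in LPS replicates 1 to 3 and to 4, 13 and 153 counts in LPS/siponimod replicates 1 to 3. Results are therefore also given with both libraries numbered 3 left out. Of the other markers, 1 of 3 tested oligodendrocyte-lineage genes rose (Mbp) and 1 fell (Cnp, which held most of that list's counts), with list sums of 149.6, 136, 147, 49.2, 67.8 and 58.7 CPM in the order of the libraries above. Neuronal markers summed to at most 17.1 CPM, with Snap25 called higher, and fibroblast and mural markers to at most 11.9 CPM, with Dcn called higher. Astrocyte markers summed to at most 57.7 CPM, mostly Slc1a3, and lymphocyte markers to at most 2.75 CPM, with Cd3e at 0 in all libraries. Endothelial markers summed to 156, 202 and 82.0 CPM with LPS, compared to 37.4, 79.9 and 26.2 CPM with LPS/siponimod, with Cdh5 first and Kdr at 0. None of the astrocyte, endothelial and lymphocyte genes passed the test, and the part of these cells in the results was not tested beyond leaving libraries out.

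In LPS/siponimod-stimulated microglia, many genes of the clathrin coat and its adaptors fell in comparison with LPS, whereas the sorting nexins went in both directions. The quasi-likelihood test of edgeR was run on 11977 genes with enough counts, with adjustment of p over all of them. Called genes passed 0.05 for this adjusted p and differed by 1.5-fold or more. Of the 72 members 68 were tested, each with at least 29 counts in every library. By this test 27 of the 68 fell and 8 rose, against 11.7% of all genes tested that were called lower and 13.6% that were called higher. This corresponds to 39.7% of members called lower and 11.8% called higher. The median log2 fold change (FC) was -0.42 for the members and -0.02 for all genes. Each of the 35 called members had the same sign in all 3 comparisons of libraries that share a number. The values of the groups did not overlap for any of these members, so this sign was fixed and adds no support.

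Calls were uneven over the roles. For comparison, 11.7% of all genes tested were called lower and 13.6% higher. Outside the sorting nexins, 20 of 41 tested members fell and 2 rose, with a median log2 FC of -0.78, whereas among 27 tested sorting nexins 7 fell and 6 rose, with a median of -0.14. With 1 library left out, 6 to 22 of the former fell and 1 to 3 rose, while 1 to 7 sorting nexins fell and 4 to 7 rose, with the fewest sorting nexin calls in both directions without LPS replicate 2. The difference between the sets was not tested. Counts of all 72 members together made up 1.36%, 1.48% and 1.57% of all counts with LPS, compared to 0.877%, 1.05% and 0.946% with LPS/siponimod. The ranges of the groups did not overlap for 49 of the 68 members, of which 36 were lower and 13 higher with LPS/siponimod. Over all genes tested, 49.3% did not overlap, against 72.1% of the members. Of all genes tested, 24% did not overlap and were lower, and 25.3% did not overlap and were higher.

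**Figure D1:**
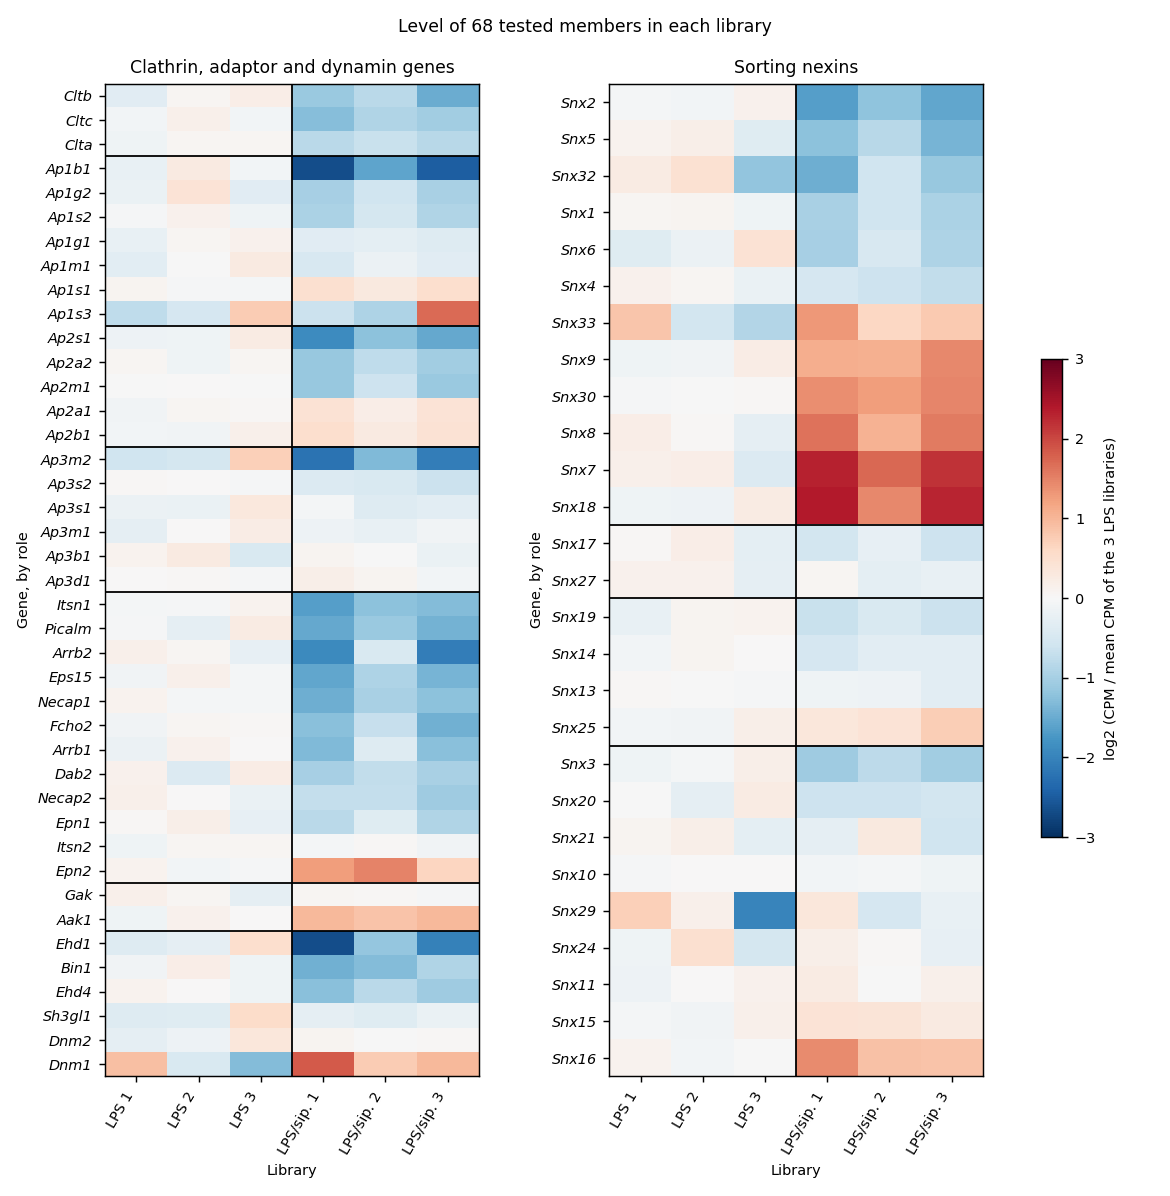
Level of each of the 68 tested members in each library, as the log2 ratio of its CPM to the mean CPM of the 3 LPS libraries (blue lower, red higher). Rows are grouped by role between black lines and the vertical line separates the LPS from the LPS/siponimod libraries. Most rows of the left panel are blue on the right side of that line, while the SNX-BAR block at the top of the right panel holds blue and red rows.

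The number of members called depended on single libraries. Without LPS replicate 2, 8 members fell and 5 rose, without LPS/siponimod replicate 1 these numbers were 7 and 7, and without LPS/siponimod replicate 3 they were 9 and 8. In these fits 1.44%, 1.52% and 2.24% of all genes were called lower and 3.72%, 4.70% and 6.26% higher. With both libraries numbered 3 left out, 16 members fell (23.5%, against 8.17% of all genes) and 8 rose (11.8%, against 11.1% of all genes). In every one of these fits, all 35 members kept the sign of their log2 FC. The group ranges of these members did not overlap, so leaving out libraries could hardly change the sign. Aak1, Snx7, Snx9, Snx18 and Snx30 among those that rose, and Ap1b1, Ap2s1, Itsn1, Necap1 and Snx2 among those that fell, stayed past the thresholds whichever of the 6 libraries was left out. The other 25 called members missed a threshold in some of these 6 fits. Snx20 was lost in all 6, Ap1g2 and Snx4 in 5, and Ap1s2, Ehd1, Necap2, Snx5 and Snx19 in 4. Ap2m1, Ap3m2, Clta, Cltb, Cltc, Dab2, Ehd4, Fcho2, Snx1 and Snx3 were lost in 3, Epn2 in 2, and Ap2a2, Bin1, Eps15, Picalm, Snx8 and Snx16 in 1. Some members that were not called passed it without 1 library, namely Epn1, Snx17, Snx25 and Snx32 without LPS replicate 3, Dnm1 and Snx33 without LPS replicate 1, and Epn1, Arrb1 and Arrb2 without LPS/siponimod replicate 2.

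All 3 clathrin chain genes fell, where 11.7% of all genes tested were called lower. Cltc, which encodes the heavy chain that forms the lattice itself, was measured at 1247, 1451 and 1244 CPM with LPS, compared to 543, 704 and 639 CPM with LPS/siponimod. No LPS/siponimod library reached the lowest LPS library, and the log2 FC was -1.06 ± 0.18 (SE, quasi-likelihood adjusted p = 0.0113). Clta, the gene of light chain A, was at 459, 527 and 520.1 CPM with LPS, compared to 288, 315 and 283 CPM with LPS/siponimod, again without overlap, with a log2 FC of -0.77 ± 0.14 (SE, quasi-likelihood adjusted p = 0.0134). Cltb, the gene of light chain B, was at 20.3, 26.9 and 29.6 CPM with LPS, compared to 11.9, 14.6 and 9.19 CPM with LPS/siponimod, with the lowest value in LPS/siponimod replicate 3. Its log2 FC was -1.10 ± 0.23 (SE, quasi-likelihood adjusted p = 0.0197). With both libraries numbered 3 left out, Clta (log2 FC -0.71, adjusted p = 0.0599) and Cltb (log2 FC -0.83, adjusted p = 0.059) missed the threshold of the same test and Cltc did not. Each of the 3 genes missed it without LPS replicate 2, without LPS/siponimod replicate 1 and without LPS/siponimod replicate 3. For Cltc these fits gave adjusted p-values of 0.0561, 0.0587 and 0.0521 in the quasi-likelihood test, with log2 FCs between -1.07 and -0.97.

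Among the subunits of the AP-2 complex, which recruits clathrin to the plasma membrane, 3 of 5 fell (60%, against 11.7% of all genes). The other 2 had positive log2 FCs. Ap2s1, the gene of the small σ subunit, was at 392.4, 400.2 and 513 CPM with LPS, compared to 118, 187 and 151 CPM with LPS/siponimod. Each LPS/siponimod library lay well below each LPS library, a 2.86-fold drop with a log2 FC of -1.52 ± 0.22 (SE, quasi-likelihood adjusted p = 0.00883). Ap2m1, whose µ subunit binds tyrosine-based sorting signals, was at 1285, 1309.9 and 1281 CPM with LPS, compared to 586, 835 and 596 CPM with LPS/siponimod. The LPS libraries were nearly equal and all above the LPS/siponimod libraries, of which replicate 2 was the highest, and the log2 FC was -0.94 ± 0.20 (SE, quasi-likelihood adjusted p = 0.0195). Without both libraries numbered 3, the log2 FC of Ap2m1 was -0.86 and its quasi-likelihood adjusted p 0.0820. The large α subunit is encoded by Ap2a1 and Ap2a2, which differed in sign. Ap2a2 fell from 345 ± 25.2 to 176 ± 24.4 CPM (mean ± SD, n = 3 each, log2 FC -0.97 ± 0.15 SE, quasi-likelihood adjusted p = 0.0104). Ap2a1 was at 83.7, 93.6 and 92.8 CPM with LPS, compared to 122, 103 and 119 CPM with LPS/siponimod, all LPS/siponimod libraries being above the LPS libraries, but its log2 FC of 0.35 ± 0.12 (SE, quasi-likelihood adjusted p = 0.0736) passed neither threshold. Ap2b1, which encodes the β subunit that contacts clathrin, was likewise higher in all 3 LPS/siponimod libraries without being called (log2 FC 0.41, quasi-likelihood adjusted p = 0.0788).

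The AP-1 complex sorts cargo between the trans-Golgi network and endosomes. Of its 7 tested subunit genes, 3 fell (42.9%, against 11.7% of all genes). Ap1b1, the gene of the large β subunit, had the largest fold change of all members that fell, at 421, 590.3 and 467 CPM with LPS, compared to 77.5, 166 and 88.9 CPM with LPS/siponimod. LPS/siponimod replicate 2 was the highest of its group and still far below the lowest LPS library. The fold change was 4.45 and the log2 FC -2.15 ± 0.33 (SE, quasi-likelihood adjusted p = 0.00994). Its sequence is related to that of Ap2b1, and how reads that match several genes were counted is not given in the sources used here. The γ2 subunit gene Ap1g2 fell from 26.4 ± 7.66 to 14.7 ± 2.32 CPM (log2 FC -0.84 ± 0.24 SE, quasi-likelihood adjusted p = 0.0441) and the small subunit gene Ap1s2 from 45.6 ± 4.13 to 26.5 ± 4.51 CPM (log2 FC -0.78 ± 0.16 SE, quasi-likelihood adjusted p = 0.0179). With no filter on low counts Ap1g2 was not called by the same test (log2 FC -0.85, adjusted p = 0.0598). Without both libraries numbered 3 neither Ap1g2 (log2 FC -0.92, adjusted p = 0.0747) nor Ap1s2 (log2 FC -0.78, adjusted p = 0.0555) was called. Ap1g2 was called in 1 of the 6 fits that left out 1 library, the one without LPS replicate 3. Without LPS replicate 2 its log2 FC was under the fold threshold (log2 FC -0.57, adjusted p = 0.127 in that test). Ap1s2 was called in 2 of these fits, with log2 FCs between -0.94 and -0.70 over all 6. Ap1s1, which encodes another small subunit, passed the adjusted p but stayed under a 1.5-fold difference (log2 FC 0.43, quasi-likelihood adjusted p = 0.0387). Ap1g1 (log2 FC -0.34, quasi-likelihood adjusted p = 0.0984), Ap1m1 (log2 FC -0.32, quasi-likelihood adjusted p = 0.211) and Ap1s3 (log2 FC 0.56, quasi-likelihood adjusted p = 0.636) were not called. Ap1m2, the µ subunit of polarised epithelia, had at most 4 counts in any library and was not tested.

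Of the 6 AP-3 genes, only Ap3m2 fell (16.7%, against 11.7% of all genes). It was at 43.1, 45.3 and 107 CPM with LPS, compared to 14.0, 25.9 and 15.4 CPM with LPS/siponimod, so that LPS replicate 3 was far above the other LPS libraries and the groups did not overlap. The log2 FC was -1.82 ± 0.44 (SE, quasi-likelihood adjusted p = 0.0288), and without both libraries numbered 3 the gene was not called (log2 FC -1.14, adjusted p = 0.0663 in the same test). Ap3s2 passed the adjusted p but not the fold change (log2 FC -0.50, quasi-likelihood adjusted p = 0.03). The remaining AP-3 genes, Ap3b1, Ap3d1, Ap3m1 and Ap3s1, had log2 FCs between -0.25 and 0.06 and none was called.

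**Figure D2:**
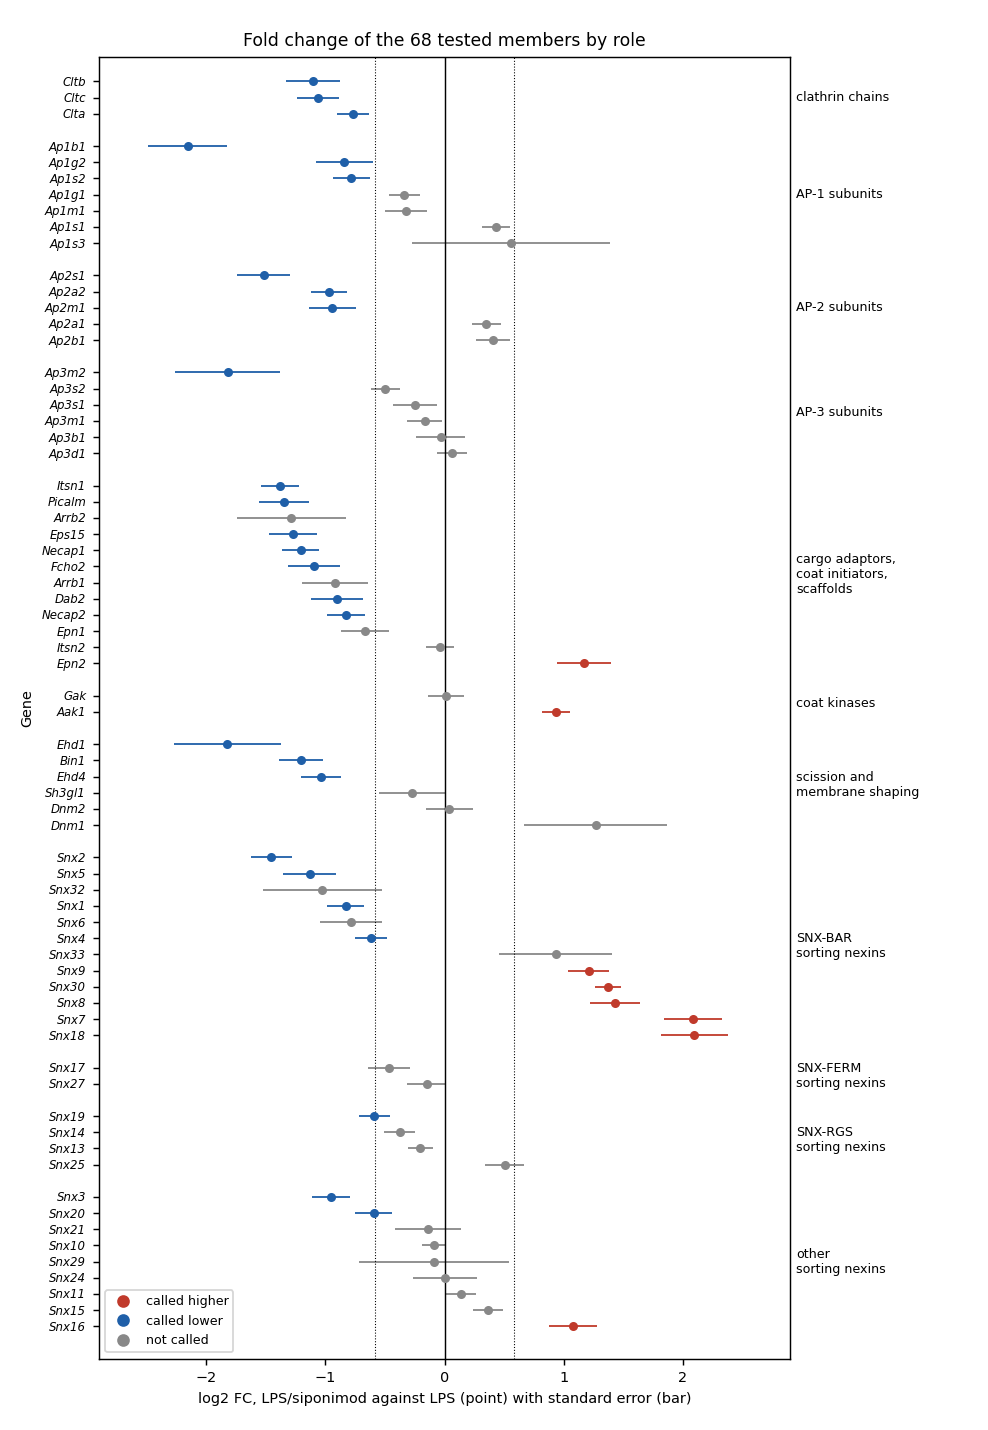
Fold change of the 68 tested members, ordered within each role. Points are log2 FCs of LPS/siponimod against LPS with standard errors (bars), red for genes called higher, blue for genes called lower and grey for the rest, and dotted lines mark a 1.5-fold change. The 3 clathrin chains are all blue, and the SNX-BAR genes run from -1.46 for Snx2 to 2.09 for Snx18.

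The cargo adaptors, coat initiators and scaffolds formed the largest group outside the sorting nexins. Of its 12 genes, 7 fell (58.3%, against 11.7% of all genes). Picalm, which encodes a clathrin assembly protein that retrieves SNARE proteins, was at 1155, 982 and 1390.5 CPM with LPS, compared to 405, 547 and 439 CPM with LPS/siponimod. The groups were far apart in all libraries, with a log2 FC of -1.34 ± 0.21 (SE, quasi-likelihood adjusted p = 0.0101). Itsn1 encodes intersectin 1, a scaffold that gathers coat proteins and dynamin, and was at 327, 334 and 367 CPM with LPS, compared to 109, 146 and 139.8 CPM with LPS/siponimod. It was lower in every LPS/siponimod library, the log2 FC being -1.38 ± 0.16 (SE, quasi-likelihood adjusted p = 0.00655). Necap1, which encodes a protein that binds AP-2, was at 82.4, 73.5 and 72.6 CPM with LPS, compared to 27.8, 39.0 and 32.2 CPM with LPS/siponimod, with a log2 FC of -1.21 ± 0.15 (SE, quasi-likelihood adjusted p = 0.00733). Its paralogue Necap2 also fell (222 ± 26.0 to 126 ± 16.7 CPM, log2 FC -0.82, quasi-likelihood adjusted p = 0.0169).

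Other genes of this role that fell were Eps15, Fcho2 and Dab2. Eps15, an early coat scaffold gene, fell from 279 ± 27.3 to 116 ± 27.5 CPM (log2 FC -1.27 ± 0.20 SE, quasi-likelihood adjusted p = 0.0106). Fcho2, whose protein bends the membrane where a coat begins, fell from 204 ± 11.3 to 95.5 ± 27.6 CPM (log2 FC -1.09 ± 0.22 SE, quasi-likelihood adjusted p = 0.0179). Dab2, an adaptor gene for endocytic receptors, was at 999, 684 and 1063 CPM with LPS, compared to 457, 547 and 464 CPM with LPS/siponimod, where LPS replicate 2 was the lowest of its group and came nearest to the LPS/siponimod libraries. Its log2 FC was -0.90 ± 0.22 (SE, quasi-likelihood adjusted p = 0.0278). Without both libraries numbered 3, neither Fcho2 (log2 FC -0.92, adjusted p = 0.06) nor Dab2 (log2 FC -0.74, adjusted p = 0.115) was called by the same test.

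Epsins are ubiquitin-binding adaptors, and the genes of this pair had log2 FCs of opposite sign. Epn2 was the gene of this role that rose, at 13.7, 11.97 and 12.3 CPM with LPS, compared to 30.1, 35.5 and 19.9 CPM with LPS/siponimod. All LPS/siponimod libraries were above all LPS libraries, with a log2 FC of 1.17 ± 0.23 (SE, quasi-likelihood adjusted p = 0.0172). Epn1, at 209, 229.9 and 169.6 CPM with LPS, compared to 116, 158 and 108 CPM with LPS/siponimod, was lower in all LPS/siponimod libraries and narrowly missed the threshold (log2 FC -0.67, quasi-likelihood adjusted p = 0.0508). The β-arrestin genes Arrb1 and Arrb2, whose proteins take activated G protein-coupled receptors to the coat, were not called. Arrb2 was at 387, 358 and 292 CPM with LPS, compared to 91.9, 252 and 81.7 CPM with LPS/siponimod, so that LPS/siponimod replicate 2 lay close to the LPS libraries and the other LPS/siponimod libraries far below. The log2 FC was -1.29 ± 0.46 (SE, quasi-likelihood adjusted p = 0.0792), and that of Arrb1 -0.92 ± 0.28 (SE, quasi-likelihood adjusted p = 0.0516). With the replicate number as a block, which compares same-numbered libraries, Epn1 (log2 FC -0.68, adjusted p = 0.0164), Arrb1 (log2 FC -0.98, adjusted p = 0.0166) and Arrb2 (log2 FC -1.48, adjusted p = 0.029) were called lower by the quasi-likelihood test. Without LPS/siponimod replicate 2, so were Epn1 (log2 FC -0.86, adjusted p = 0.0304), Arrb1 (log2 FC -1.30, adjusted p = 0.00879) and Arrb2 (log2 FC -2.001, adjusted p = 0.0073). DESeq2 and the likelihood ratio test of edgeR also called all 3 lower (adjusted p between 0.0106 and 0.0277). Epn1 and Arrb1 were called with limma-voom and with RLE scaling too, and Epn1 with a minimum of 1 CPM and without LPS replicate 3. Itsn2 was not called (log2 FC -0.04, quasi-likelihood adjusted p = 0.815).

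Of the kinases that phosphorylate adaptor complexes, Aak1 rose and Gak was not called. Aak1, whose kinase acts on the µ subunit of AP-2, was at 55.6, 66.3 and 61.1 CPM with LPS, compared to 120.3, 110.1 and 120.1 CPM with LPS/siponimod. The lowest LPS/siponimod library was well above the highest LPS library, with a log2 FC of 0.94 ± 0.12 (SE, quasi-likelihood adjusted p = 0.00726). Gak, the gene of cyclin G-associated kinase that also helps to uncoat vesicles, was at 268, 251 and 199 CPM with LPS, compared to 248, 244 and 235 CPM with LPS/siponimod. These ranges overlapped (log2 FC 0.02, quasi-likelihood adjusted p = 0.95).

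Among genes of scission and membrane shaping, 3 of 6 tested fell (50%, against 11.7% of all genes), and none of them was a dynamin. Bin1, an amphiphysin family gene, fell from 105.7 ± 13.4 to 45.9 ± 9.31 CPM (log2 FC -1.20 ± 0.18 SE, quasi-likelihood adjusted p = 0.00981). The EHD genes encode ATPases that act on recycling endosomes. Ehd4 was at 457, 426 and 385 CPM with LPS, compared to 176, 242 and 200.2 CPM with LPS/siponimod, which left a wide gap between the groups (log2 FC -1.03 ± 0.17 SE, quasi-likelihood adjusted p = 0.011). Ehd1 was at 822, 893 and 1529 CPM with LPS, compared to 172, 480.5 and 265 CPM with LPS/siponimod. LPS replicate 3 was the highest and LPS/siponimod replicate 2 the nearest to the LPS group, and the log2 FC was -1.82 ± 0.45 (SE, quasi-likelihood adjusted p = 0.0298). Without both libraries numbered 3 the log2 FC of Ehd1 was -1.39 and its quasi-likelihood adjusted p 0.118.

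Dnm2, the dynamin gene used by most cell types, was at 330.2, 358 and 509.6 CPM with LPS, compared to 425, 396 and 410.3 CPM with LPS/siponimod, with overlapping groups and a log2 FC of 0.04 ± 0.20 (SE, quasi-likelihood adjusted p = 0.9). Dnm1, the dynamin gene best known from neurons, was at 15.9, 6.20 and 3.45 CPM with LPS, compared to 30.5, 14.5 and 16.7 CPM with LPS/siponimod. It was higher in each same-numbered pair while the groups overlapped, since LPS replicate 1 was above LPS/siponimod replicate 2. Dnm1 was not called (log2 FC 1.27, quasi-likelihood adjusted p = 0.154), but was called with the replicate number as a block (log2 FC 1.46, adjusted p = 0.0197 by the quasi-likelihood test) and without LPS replicate 1 (log2 FC 2.10, adjusted p = 0.0484 in that test). Sh3gl1, the endophilin gene of the list, was not called (log2 FC -0.27, quasi-likelihood adjusted p = 0.478). Amph, the amphiphysin gene of neurons, was not tested. It had 0, 2 and 18 counts with LPS, compared to 0, 0 and 8 counts with LPS/siponimod, found almost only in the libraries numbered 3.

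The SNX-BAR sorting nexins split into genes that rose and genes that fell, with 9 of 12 called (75%, against 25.3% of all genes tested). Those of the complex that carries receptors from endosomes back to the trans-Golgi network (Snx1 and Snx2 with Snx5 and Snx6) all had negative log2 FCs, and 3 of them fell. Snx2 was at 485, 479 and 550.2 CPM with LPS, compared to 161, 220.2 and 171 CPM with LPS/siponimod. Every LPS/siponimod library had less than every LPS library by a wide margin, with a log2 FC of -1.46 ± 0.17 (SE, quasi-likelihood adjusted p = 0.00655). Snx1 fell from 214 ± 16.5 to 121 ± 18.8 CPM (log2 FC -0.83 ± 0.15 SE, quasi-likelihood adjusted p = 0.0152) and Snx5 from 219.9 ± 42.3 to 100.4 ± 21.4 CPM (log2 FC -1.13 ± 0.22 SE, quasi-likelihood adjusted p = 0.0171). Snx6 was at 244, 275 and 419.7 CPM with LPS, compared to 158, 223 and 164 CPM with LPS/siponimod, where LPS replicate 3 was the highest, and missed the threshold (log2 FC -0.78, quasi-likelihood adjusted p = 0.0648) with the quasi-likelihood test while DESeq2 (adjusted p = 0.0183) and the likelihood ratio test (adjusted p = 0.0305) called it. Snx4, which acts in recycling to the plasma membrane and in autophagy, also fell (46.8 ± 5.22 to 30.5 ± 2.59 CPM, log2 FC -0.62, quasi-likelihood adjusted p = 0.021).

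The SNX-BAR genes that rose were Snx7, Snx8, Snx9, Snx18 and Snx30. Snx9 and Snx18 encode related proteins that bind dynamin and remodel membranes during endocytosis. Snx18 had the largest fold change of all members that rose, at 89.4, 88.2 and 115 CPM with LPS, compared to 504, 267 and 479 CPM with LPS/siponimod. The lowest LPS/siponimod library, replicate 2, was still well above the highest LPS library, with a log2 FC of 2.09 ± 0.28 (SE, quasi-likelihood adjusted p = 0.00779). Snx9 was at 121, 122.9 and 155 CPM with LPS, compared to 283, 280.1 and 359 CPM with LPS/siponimod, without overlap, and its log2 FC was 1.21 ± 0.17 (SE, quasi-likelihood adjusted p = 0.00855). Snx33, the third gene of this subfamily, was at 24.8, 9.60 and 7.67 CPM with LPS, compared to 34.5, 21.7 and 24.0 CPM with LPS/siponimod. LPS replicate 1 lay among the LPS/siponimod libraries and the gene was not called (log2 FC 0.93, quasi-likelihood adjusted p = 0.178), whereas it was called with the replicate block (log2 FC 1.09, adjusted p = 0.0282, quasi-likelihood test) and without LPS replicate 1 (log2 FC 1.64, adjusted p = 0.0311 in that test).

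Snx7 and Snx30 encode partners of SNX4. Snx7 was at 7.66, 7.84 and 5.14 CPM with LPS, compared to 34.0, 22.6 and 31.1 CPM with LPS/siponimod, without overlap, with a log2 FC of 2.09 ± 0.24 (SE, quasi-likelihood adjusted p = 0.00655). Snx30 had the smallest p-value of all members, and its libraries were close to each other within each group, at 38.0, 38.9 and 39.9 CPM with LPS, compared to 102, 92.8 and 108 CPM with LPS/siponimod (log2 FC 1.37 ± 0.11 SE, quasi-likelihood adjusted p = 0.00326). Both therefore went opposite to Snx4. Snx8, whose protein acts in transport from endosomes to the trans-Golgi network, was at 40.5, 36.0 and 29.2 CPM with LPS, compared to 108, 72.1 and 105 CPM with LPS/siponimod, again without overlap, with a log2 FC of 1.43 ± 0.21 (SE, quasi-likelihood adjusted p = 0.00888). Snx32, a close relative of Snx6, was low and variable at 2.48, 2.86 and 0.915 CPM with LPS, compared to 0.753, 1.37 and 0.951 CPM with LPS/siponimod and was not called (log2 FC -1.02, quasi-likelihood adjusted p = 0.166).

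**Figure D3:**
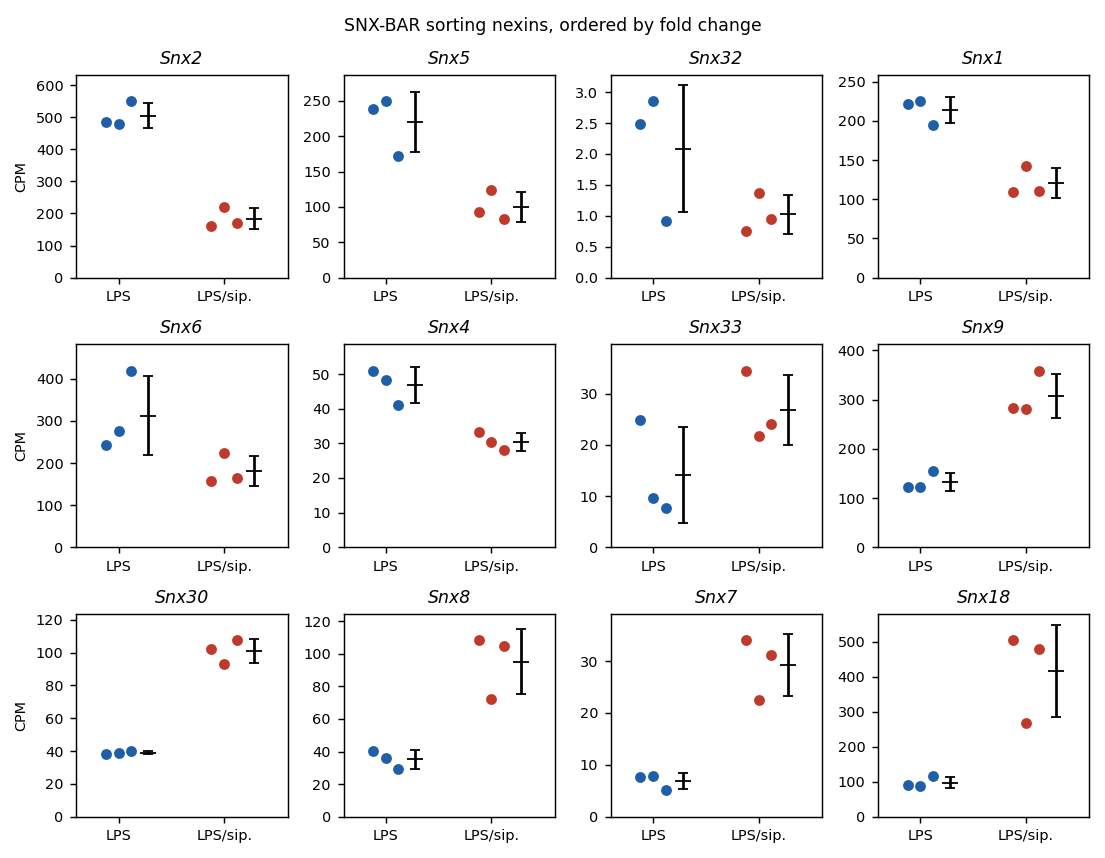
CPM of the 12 SNX-BAR genes in each library (points, blue for LPS and red for LPS/siponimod, replicates 1 to 3 from left to right) with mean and SD (bars, n = 3), on axes that start at 0. The panels run from the lowest to the highest fold change. Snx7, Snx8, Snx9, Snx18 and Snx30 lie above the LPS libraries in every LPS/siponimod library, and Snx1, Snx2, Snx4, Snx5 and Snx6 below them.

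Promoter windows were read from RefSeq (build GRCr8, not the build used for mapping), where 61 of the 72 members were matched by symbol. They are shown for Epn1 and Epn2, the pair whose ratio differed most between the groups, and for Snx18 and Snx8, which rose and both hold the E-box CACGTG, a motif bound by basic helix-loop-helix factors. The latter genes and this motif were picked after the matches of 14 motifs had been seen. Each window holds the 250 bases before the annotated start, 5′ to 3′ on the strand of the gene, with CACGTG in capitals. Those of Epn1, chr1:77789412-77789661, and Epn2, chr10:46759093-46759342 for the first of its 2 listed starts, lie on the minus strand and hold no CACGTG. That of Snx18 is chr2:46991517-46991766 on the minus strand, with the motif 191 bases before the start, and that of Snx8 is chr12:19365505-19365754 on the plus strand, with the motif 120 bases before it.
Epn1: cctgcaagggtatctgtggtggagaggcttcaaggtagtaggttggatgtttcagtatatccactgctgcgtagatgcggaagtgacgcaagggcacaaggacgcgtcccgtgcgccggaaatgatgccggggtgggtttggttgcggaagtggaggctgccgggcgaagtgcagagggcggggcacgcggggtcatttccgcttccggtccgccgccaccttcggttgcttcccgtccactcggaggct
Epn2: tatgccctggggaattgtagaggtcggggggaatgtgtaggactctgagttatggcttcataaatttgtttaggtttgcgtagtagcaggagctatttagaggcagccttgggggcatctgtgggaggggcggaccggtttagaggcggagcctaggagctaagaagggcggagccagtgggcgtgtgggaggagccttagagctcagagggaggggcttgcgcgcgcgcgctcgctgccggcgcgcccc
Snx18: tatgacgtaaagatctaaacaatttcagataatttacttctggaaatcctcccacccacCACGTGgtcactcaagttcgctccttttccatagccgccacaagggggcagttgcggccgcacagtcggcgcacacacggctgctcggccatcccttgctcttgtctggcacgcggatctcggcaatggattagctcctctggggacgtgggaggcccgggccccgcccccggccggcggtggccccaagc
Snx8: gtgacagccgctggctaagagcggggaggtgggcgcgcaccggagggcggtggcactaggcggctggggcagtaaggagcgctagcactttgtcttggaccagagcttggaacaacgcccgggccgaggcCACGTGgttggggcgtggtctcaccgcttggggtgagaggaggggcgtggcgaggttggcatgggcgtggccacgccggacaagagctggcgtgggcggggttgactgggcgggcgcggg

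CACGTG, searched like all motifs on both strands, was found for 2 of the 6 matched members that rose (Snx8 and Snx18), for 2 of the 25 matched members that fell (Ap1s2 and Snx2) and for 2 that were not called (Gak and Snx25). In all, 6 of 61 members held it, and 6.18% of 27457 genes. Longer forms of this motif, TCACGTG (1 member, 3.13% of all genes) and TCACGTGA (1 member, 0.776%), were both found for Snx2 and contain it. The cAMP response element TGACGTCA was found for 2 members (1.78% of all genes), and TGACGTNA, which includes it, for 3 (3.19%). The C/EBP-ATF response element TGATGNAA was found for 1 member (3.58%), the site of the transcription factor AP-1 (not the adaptor complex), TGANTCA, for none (6.99%), the NF-κB site for 12 (17.9%) and the interferon response element for 1 (3.61%). The CCAAT box was found for 17 (36.1%), the PU.1 site GAGGAA for 15 (24.8%), its longer form GAGGAAGT for none (2.2%), the sterol response element TCACNCCAC for 1 (1.09%) and the ETS site CCGGAAG for 13 (8.11%). These matches describe letters in the windows only.

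Of the 15 tested sorting nexins without a BAR domain, 3 fell and 1 rose, which makes 26.7% called against 25.3% of all genes. Snx3, whose protein works with retromer in retrieving cargo from early endosomes, was at 404, 429 and 502 CPM with LPS, compared to 214, 259 and 217 CPM with LPS/siponimod. All LPS/siponimod libraries were below all LPS libraries, and the log2 FC was -0.95 ± 0.16 (SE, quasi-likelihood adjusted p = 0.0112). Snx16, an endosomal sorting nexin gene, rose from 7.58 ± 0.483 to 16.0 ± 3.76 CPM (log2 FC 1.07 ± 0.20 SE, quasi-likelihood adjusted p = 0.0155). Snx20, whose protein binds the leukocyte adhesion ligand PSGL-1, fell by 0.59 on the log2 scale (quasi-likelihood adjusted p = 0.0343), as did Snx19 (adjusted p = 0.0242 in the same test), both just past the fold threshold. With the replicate block the log2 FCs of Snx20 and Snx19 were -0.58, just under that threshold, and with both libraries numbered 3 left out they were -0.48 and -0.51 and neither was called. Neither was called by limma-voom, where the log2 FCs were again -0.58. Snx20 was called in none of the 6 fits that left out 1 library (log2 FC between -0.69 and -0.46), and Snx19 in 2 of them (between -0.67 and -0.53).

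Neither Snx17 (log2 FC -0.46, quasi-likelihood adjusted p = 0.0925) nor Snx27 (log2 FC -0.15, quasi-likelihood adjusted p = 0.516), whose FERM-containing proteins recycle receptors to the cell surface, was called. Snx15 (log2 FC 0.36, quasi-likelihood adjusted p = 0.0745) and Snx25 (log2 FC 0.50, quasi-likelihood adjusted p = 0.0653) came nearest to a call among the sorting nexins without a BAR domain that had positive log2 FCs. Snx10, a gene of endolysosomal sorting in phagocytes and osteoclasts, was at 112, 116 and 115 CPM with LPS, compared to 107, 109 and 105 CPM with LPS/siponimod. The groups were narrow and did not overlap, but differed little and were not called (log2 FC -0.09, quasi-likelihood adjusted p = 0.509). Snx11, Snx13, Snx14, Snx21, Snx24 and Snx29 were not called, with log2 FCs between -0.38 and 0.13. Snx29 was at 20.5, 13.9 and 3.18 CPM with LPS, compared to 15.8, 8.78 and 10.8 CPM with LPS/siponimod, LPS replicate 3 being far below the rest. Snx22, with at most 2 counts in any library, and Snx31, with 6, 2 and 15 counts with LPS, compared to 5, 2 and 0 counts with LPS/siponimod, were not tested. With no filter on low counts none of the 4 untested members was called (quasi-likelihood adjusted p between 0.169 and 0.949).

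Related members were then compared within each library, as the log2 ratio of their counts, which does not depend on the scaling of libraries. How reads that match both genes of a pair were counted is not given in the sources used here, so the genes of a pair may share reads. Of 16 pairs, 9 had ratios whose ranges did not overlap between the groups (56.2%), which is near the 47.9% over every pair of tested genes with counts in all libraries. With 3 libraries against 3 an exact permutation test cannot go below p = 0.1, which is 0.178 after adjustment over the 16 pairs, so that none passes. The ratio of Epn1 to Epn2 was 3.92, 4.26 and 3.79 with LPS, compared to 1.95, 2.16 and 2.44 with LPS/siponimod. It was lower in all LPS/siponimod libraries, with a difference of the means of -1.81. The ratio of Ap2a1 to Ap2a2 was -2.10, -1.75 and -1.96 with LPS, compared to -0.36, -0.98 and -0.49 with LPS/siponimod, a difference of 1.33. All LPS/siponimod libraries were above all LPS libraries. The ratio of Ap1s1 to Ap1s2 was 1.07, 0.79 and 1.02 with LPS, compared to 2.40, 1.78 and 2.36 with LPS/siponimod (difference 1.22), and that of Ap3m1 to Ap3m2 was 0.59, 0.81 and -0.24 with LPS, compared to 2.32, 1.37 and 2.23 with LPS/siponimod (difference 1.59). In both pairs every LPS/siponimod ratio was above every LPS ratio. The ratio of Itsn1 to Itsn2 was 1.20, 1.04 and 1.20 with LPS, compared to -0.46, -0.12 and -0.04 with LPS/siponimod (difference -1.35). Every LPS/siponimod ratio of this pair was below every LPS ratio.

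Smaller differences without overlap were found for Aak1 to Gak (difference 0.91), Snx1 to Snx2 (0.63), Snx9 to Snx18 (-0.84) and Necap1 to Necap2 (-0.39). The other 7 pairs overlapped between the groups, although 4 of them had the same sign in all 3 comparisons of same-numbered libraries (Dnm1 to Dnm2, Ehd1 to Ehd4, Ap1g1 to Ap1g2 and Clta to Cltb). Among them were the light chain genes Clta to Cltb (difference 0.35), Arrb1 to Arrb2 (0.49), Ap1g1 to Ap1g2 (0.48), Ehd1 to Ehd4 (-0.85) and Dnm1 to Dnm2 (1.41). Each of the 16 differences kept its sign in all 6 comparisons that left out 1 library, which for the 9 pairs without overlap was certain beforehand. Of the 16 differences, 8 moved by more than 1.5 times. The difference then ranged from 0.71 to 2.13 for Dnm1 to Dnm2, from -1.12 to -0.51 for Ehd1 to Ehd4, from 0.29 to 0.71 for Ap1g1 to Ap1g2 and from 0.32 to 0.70 for Arrb1 to Arrb2. For Clta to Cltb it ranged from 0.20 to 0.46, for Necap1 to Necap2 from -0.50 to -0.21, for Snx5 to Snx6 from -0.77 to -0.14 and for Ap3s1 to Ap3s2 from 0.17 to 0.45. Dnm1 to Dnm2 was lowest without LPS replicate 3 and highest without LPS replicate 1, and Snx5 to Snx6 nearest to 0 without LPS replicate 1.

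**Figure D4:**
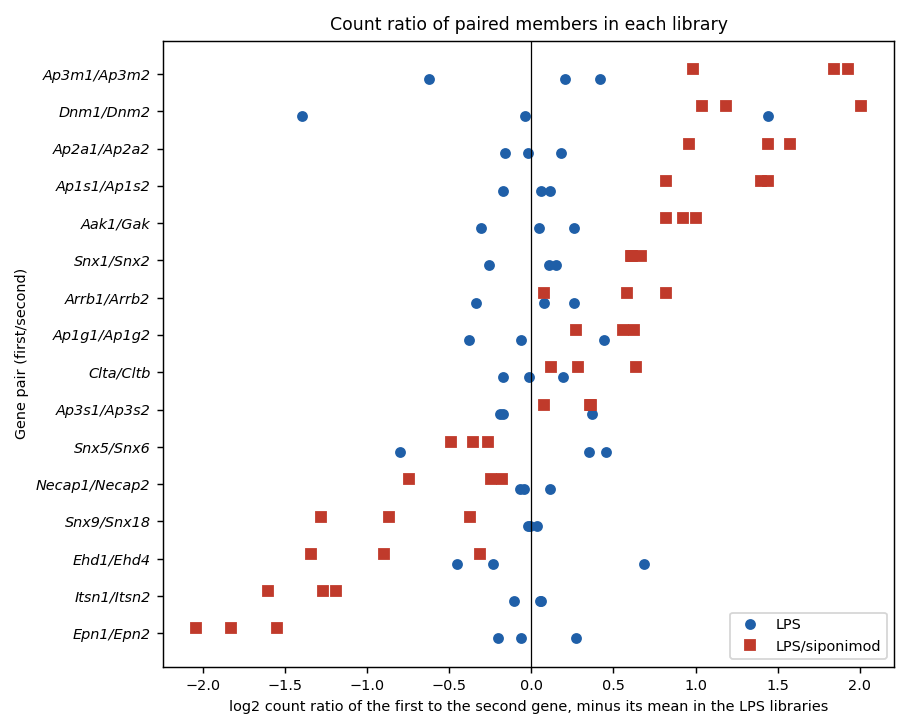
Log2 count ratio of 16 pairs of related members in each library, after subtracting the mean ratio of the LPS libraries (blue circles, LPS; red squares, LPS/siponimod). Pairs run from the lowest difference at the bottom (Epn1/Epn2, -1.81) to the highest at the top (Ap3m1/Ap3m2, 1.59), and 9 of them have separate circles and squares.

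Other genes of the same routes were described from lists of well-known members. Of 39 tested coat and endocytic accessory genes that are not among the 72, 4 rose and 4 fell (median log2 FC -0.15), compared with 13.6% and 11.7% of all genes. With 1 library left out, 0 to 6 rose and 0 to 8 fell, none being called without LPS replicate 2, without LPS/siponimod replicate 1 or without LPS/siponimod replicate 3. Among these 39, the genes that fell with the smallest adjusted p were Fnbp1 (log2 FC -1.49, quasi-likelihood adjusted p = 0.0164), whose F-BAR protein bends membranes at coated pits, Pacsin1 (log2 FC -1.61, quasi-likelihood adjusted p = 0.0179) and Pacsin2 (log2 FC -0.61, quasi-likelihood adjusted p = 0.028), and those that rose were Synj2 (log2 FC 1.37, quasi-likelihood adjusted p = 0.0185), a phosphoinositide phosphatase gene of uncoating, Clba1 (log2 FC 1.64, quasi-likelihood adjusted p = 0.0276) and Ehd2 (log2 FC 2.06, quasi-likelihood adjusted p = 0.037). Ehd2, with 4 to 10 counts in the LPS libraries, was near the limit of detection there. Of 23 genes of the retromer, retriever, CCC and WASH complexes, partners of sorting nexins on endosomes, none rose and 2 fell, with a median log2 FC of -0.29. These were Vps26b (log2 FC -0.92, quasi-likelihood adjusted p = 0.0251), a cargo-binding retromer subunit gene, and Ccdc93 (log2 FC -0.91, quasi-likelihood adjusted p = 0.0452), and with 1 library left out 0 to 4 fell. Of 29 tested genes of the ESCRT machinery, which sorts ubiquitinated receptors towards lysosomes, 4 rose and 1 fell, with a median of -0.16, and with 1 library left out 2 to 6 rose and 0 to 2 fell. Stam (log2 FC 1.48 ± 0.23 SE, quasi-likelihood adjusted p = 0.0103), Vps37c (log2 FC 1.26 ± 0.16 SE, quasi-likelihood adjusted p = 0.00733) and Ptpn23 (log2 FC 0.94 ± 0.12 SE, quasi-likelihood adjusted p = 0.00745) were the leading genes that rose, and Vps25 fell (log2 FC -0.76 ± 0.12 SE, quasi-likelihood adjusted p = 0.0106). The pathway lists, which include receptors and genes of phosphoinositide turnover, held 142 tested genes. Of these, 17 rose (12%, against 13.6% of all genes) and 14 fell (9.86%, against 11.7% of all genes). With the replicate block 21 rose (14.8%, against 17.7% of all genes) and 24 fell (16.9%, against 16.4% of all genes).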

How the data were processed

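Counts per gene of 6 libraries, 3 per group, were used as deposited. The authors demultiplexed single-end reads (bcl2fastq, version 2.20.0.422 per the submitters' processing notes), trimmed them and mapped them to the rat genome mRatBN7.2 in the CLC Genomics Workbench, and deposited total read counts without normalization. The handling of multi-mapping reads, strand and introns is not given in the sources used here. A nameless row without counts was left out. Which cultures or litters the replicates come from is not given in the sources used here, so that p-values measure the spread between these libraries.

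The tools were edgeR (version 4.0.16) in R (version 4.3.3), with filterByExpr (minimum count 10, minimum total 15), TMM, glmQLFit and glmQLFTest with the group as the only term, and Benjamini-Hochberg adjustment over 11977 genes. Standard errors are the size of the log2 FC divided by the square root of the F statistic. Alternatives were RLE, DESeq2 (version 1.42.0), limma-voom (version 3.58.1), the likelihood ratio test, 2 other filters, a replicate block, no fold threshold and each library left out. Replicate numbers come from the labels. Deviations from group means correlated at 0.42, 0.545 and 0.611 for same-numbered libraries and between -0.534 and 0.0856 otherwise, so that the numbers appear to pair libraries. The main fit has no block, as in the methods of the study, and the block is an alternative. In counts simulated for this comparison, 195 of 11840 genes were changed, a far smaller share than the 25.3% of genes called in the data. There the quasi-likelihood test recovered 59 of 98 genes changed 4-fold and 7 of 97 changed 2-fold, with 1 false call. Adjusted p depends on the share of changed genes, so these recovery rates need not hold for the data.

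The members and lists were chosen with earlier results of these data known. The genes named were up to 3 called members per direction and role, the nearest uncalled member of each role, untested members, those nearest the thresholds, members of the 16 pairs, and up to 3 called genes per direction of each pathway list with Tfrc, Lrp1 and Csf1r. Some items that the rule or the lists name are not reported here. Outside this rule, Eps15, Fcho2, Dab2, Snx4, Snx8, the remaining uncalled members, the marker genes, the motifs and the promoters of Snx18 and Snx8 were chosen after their values were seen, as was leaving out both libraries numbered 3. Counting error and the spread of 3 libraries limit precision.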

Additional observations from a re-analysis of the deposited data

How the results depend on the processing

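All 35 called members kept their sign under every alternative, which their non-overlapping group ranges all but fixed beforehand. The number called depended on the alternative. Between 26 and 31 members fell and 8 to 10 rose under RLE, DESeq2, limma-voom, the likelihood ratio test, the other filters, no fold threshold and the replicate block. Leaving out 1 library gave 7 to 28 members that fell and 5 to 10 that rose, and 182 to 1772 of all genes lower and 469 to 1941 higher. Over the pathway lists together, 1 to 25 genes were then lower and 5 to 23 higher. With both libraries numbered 3 left out, chosen after seeing the data, 16 members fell. With the replicate block, 24 genes of the pathway lists were lower in place of 14, while the share of all genes called lower went from 11.7% to 16.4%, and among members Epn1, Arrb1, Arrb2, Dnm1 and Snx33 were gained and Snx19 and Snx20 lost.

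Some genes that were not called changed sign. Snx29 had a log2 FC of 0.24 with limma-voom and 0.18 with the replicate block, Lrp1 0.0011 with limma-voom and Snx24 -0.0048 with no filter. With both libraries numbered 3 left out, the values were -0.16 for Ap1s3, 0.018 for Itsn2, -0.075 for Gak, -0.086 for Snx24 and 0.066 for Sh3gl1. Leaving out 1 library gave ranges of -0.77 to 1.18 for Ap1s3, -0.22 to 0.13 for Ap3b1, -0.086 to 0.0091 for Itsn2, -0.10 to 0.12 for Gak, -0.42 to 0.043 for Snx21, -0.54 to 0.47 for Snx29, -0.20 to 0.33 for Snx24, -0.41 to 0.11 for Sh3gl1, -0.062 to 0.26 for Dnm2 and -0.26 to 0.20 for Lrp1. The cause of these changes was not tested. In simulated counts with 195 of 11840 genes changed, the quasi-likelihood test recovered 7 of 97 changes of 2-fold with 1 false call, as did limma-voom. The likelihood ratio test recovered 41 with 31 false calls and DESeq2 45 with 54. In the data 25.3% of genes were called, so these recovery rates need not hold there. A member not called is still not shown to be unchanged.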

Other observations

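Of 19 tested endocytic cargo receptor genes, 3 rose and 3 fell, with a median log2 FC of -0.02. This makes 15.8% in each direction, near the 13.6% and 11.7% of all genes called higher and lower. With 1 library left out, 3 to 6 rose and 1 to 5 fell. Igf2r, the cation-independent mannose 6-phosphate receptor gene that brings hydrolases to lysosomes, was at 15.8, 11.2 and 6.78 CPM with LPS, compared to 143, 67.8 and 145 CPM with LPS/siponimod. Every LPS/siponimod library was above every LPS library, with a log2 FC of 3.40 ± 0.44 (SE, quasi-likelihood adjusted p = 0.00733). Insr, the insulin receptor gene, rose from 19.3 ± 5.20 to 84.8 ± 15.9 CPM (mean ± SD, n = 3 each, log2 FC 2.14 ± 0.25 SE, quasi-likelihood adjusted p = 0.00655) and Lrp12, an endocytic receptor gene, from 20.0 ± 0.995 to 79.1 ± 7.49 CPM (log2 FC 1.98 ± 0.12 SE, quasi-likelihood adjusted p = 0.00241). Stab1, a scavenger receptor gene, was at 695, 973 and 935 CPM with LPS, compared to 31.9, 160.3 and 87.7 CPM with LPS/siponimod, again without overlap (log2 FC -3.22 ± 0.59 SE, quasi-likelihood adjusted p = 0.0143). The mannose receptor gene Mrc1 (log2 FC -2.41, quasi-likelihood adjusted p = 0.0054) and Tfrc, the transferrin receptor gene whose product is a standard cargo of clathrin-coated pits (log2 FC -1.88, quasi-likelihood adjusted p = 0.0204), fell as well. Tfrc was at 1121, 536 and 410.4 CPM with LPS, compared to 201, 159 and 200.2 CPM with LPS/siponimod, and LPS replicate 1 was the highest, without which its log2 FC was -1.33. Tfrc was not called without LPS replicate 2 or without any one of the LPS/siponimod replicates (quasi-likelihood adjusted p up to 0.0859). Stab1 was not called without LPS replicate 2, without LPS/siponimod replicate 3 or without both libraries numbered 3 (up to 0.0619 in the same test), and had a log2 FC of -3.87 without LPS/siponimod replicate 2. Lrp1 (log2 FC -0.02, quasi-likelihood adjusted p = 0.976) and Csf1r (log2 FC -1.38, quasi-likelihood adjusted p = 0.106) were not called.

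Of 32 tested genes for the enzymes that make or remove the phosphoinositides bound by adaptors and PX domains and for their partner subunits, 6 rose and 4 fell (median log2 FC 0.17), beside 13.6% and 11.7% of all genes tested. With 1 library left out, 0 to 5 rose and 0 to 7 fell, none being called without LPS replicate 2 or without LPS/siponimod replicate 1. Uvrag, a gene of the endosomal PI 3-kinase complex, rose from 37.9 ± 7.51 to 94.1 ± 16.3 CPM (log2 FC 1.31 ± 0.21 SE, quasi-likelihood adjusted p = 0.0105), and Pik3c2a, a PI 3-kinase gene of coated pits, from 62.5 ± 6.39 to 114 ± 16.5 CPM (log2 FC 0.87 ± 0.15 SE, quasi-likelihood adjusted p = 0.0132). Mtmr14, a myotubularin family gene, also rose (log2 FC 0.62, quasi-likelihood adjusted p = 0.0175). Mtmr4 (log2 FC -0.94, quasi-likelihood adjusted p = 0.0153), Inpp5d (log2 FC -1.03, quasi-likelihood adjusted p = 0.0225), which encodes the phosphatase SHIP1, and Pip4k2b (log2 FC -1.22, quasi-likelihood adjusted p = 0.0348) fell.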
